A study of Arabidopsis thaliana with 2 samples.

Results

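The genes described here are 41 loci of Arabidopsis thaliana that encode heat shock transcription factors (HSFs) and molecular chaperones. They were taken by their locus identifiers from a table of 33557 identifiers with values, and all 41 were measured. The table gives FPKM, that is fragments of RNA counted per kilobase of transcript and scaled by the depth of a library, in mature ovules, with 1 RNA-seq library of myb98 and 1 of wild-type. The mutant lacks normal function of MYB98, a transcription factor of the synergid cells beside the egg cell. The ovules sequenced as wild-type were unpollinated ovules of the male-sterile line ms1. Plants grew at 22 °C ± 2 in days of 16 hours of light, with no heat treatment named. Per the protocol given for both samples, which speaks of wild-type plants, flowers were emasculated at floral stage 12 and ovules of about 50 pistils were taken by hand 36 hours later. Each library is 1 pool, so genotype, line, harvest and library preparation cannot be told apart, and no difference could be checked in replicates or tested.

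HSFs bind heat shock elements in promoters. In Arabidopsis the HSFA1 proteins are present before stress and start the response, while HSFA2, HSFA7A and other HSFs are themselves made after heat and carry it on. Chaperones then hold, refold or disaggregate unfolded proteins. Small HSPs bind unfolding clients, HSP70 and HSP90 fold them in ATP cycles, and HSP101 pulls apart aggregates. The HSP70 and HSP90 families have members that heat induces and members that cells make all the time. Chaperones of these families work in the cytosol, plastid, mitochondrion, peroxisome or endoplasmic reticulum (ER). In the Arabidopsis female gametophyte the ER HSP70 protein BIP is known to be needed for fusion of the polar nuclei.

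By general knowledge of these genes, 25 were classed as heat-inducible and 15 as constitutive, and BIP3, which ER stress induces, was kept apart. A gene was expressed if it reached 1 FPKM in either library, as 32 of the 41 did. Ratios are log2((myb98 FPKM + 1)/(wild-type FPKM + 1)), which understates the change of low genes. A gene is said to have fallen or risen where the size of this ratio reached 2, and folds are plain ratios of FPKM. The table gives no counts. From its lowest values the libraries held about 43600000 fragments (myb98) and 49500000 fragments (wild-type).

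As context for the whole libraries, MYB98 (AT4G18770) had 0.474 FPKM in the myb98 library and 1.35 FPKM in the wild-type library, the direction of its label. Its locus overlaps that of a gene on the other strand. The ovule genes STK, SHP1, BEL1 and INO summed to 184 FPKM in myb98 ovules and 181 FPKM in wild-type ovules. Of 4 pollen genes, ANX1 alone was expressed, at 1.26 FPKM in myb98 and 1.28 FPKM in wild-type ovules, and DAZ3 was listed at 0 in both. The 5 EC1 genes of the egg cell summed to 259 FPKM in myb98 and 222 FPKM in wild-type ovules, and the carpel genes SPT and ALC to 40.3 and 53.3 FPKM in the same order. Each of the ovule, egg cell and carpel sums joined genes of both directions. STK, EC1.2, EC1.3, EC1.5 and SPT were higher in myb98 and the other summed genes lower. EC1.5 had 56.8 FPKM in myb98 and 24.3 FPKM in wild-type ovules. The values are of whole ovules, so fewer cells of a type and less RNA per cell cannot be told apart.

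The members that fell in myb98 ovules were all heat-inducible, and most constitutive members were lower by less than the rule. Of 18 expressed heat-inducible members, 7 fell and 0 rose. Of 14 expressed constitutive members, 0 fell and 0 rose. Of the 18, 8 reached 1 FPKM in the wild-type library alone, so they had to be lower in myb98, and none of the 14 did. Over all 16303 expressed genes, 0.712% fell and 0.282% rose, so a count of 0 among 14 genes does not set the constitutive members apart. Of these 14, 13 had a log2 ratio below 0. The median log2 ratio was -1.33 for heat-inducible members (range -3.74 to 1.93) and -0.60 for constitutive members (range -0.95 to 0.20), against 0.00 for all expressed genes, whose lower and upper quartiles were -0.28 and 0.29. Plain sums, which need no pseudocount, were 66.0 FPKM in myb98 and 278 FPKM in wild-type ovules for the heat-inducible members (23.7% of wild-type), and 774 and 1140 FPKM for the constitutive members (67.7% of wild-type). With a pseudocount of 5 FPKM the falls came to 3 and the 2 medians to -0.59 and -0.51, and with 0.1 FPKM the falls came to 10, with 1 rise.

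**Figure D1:**
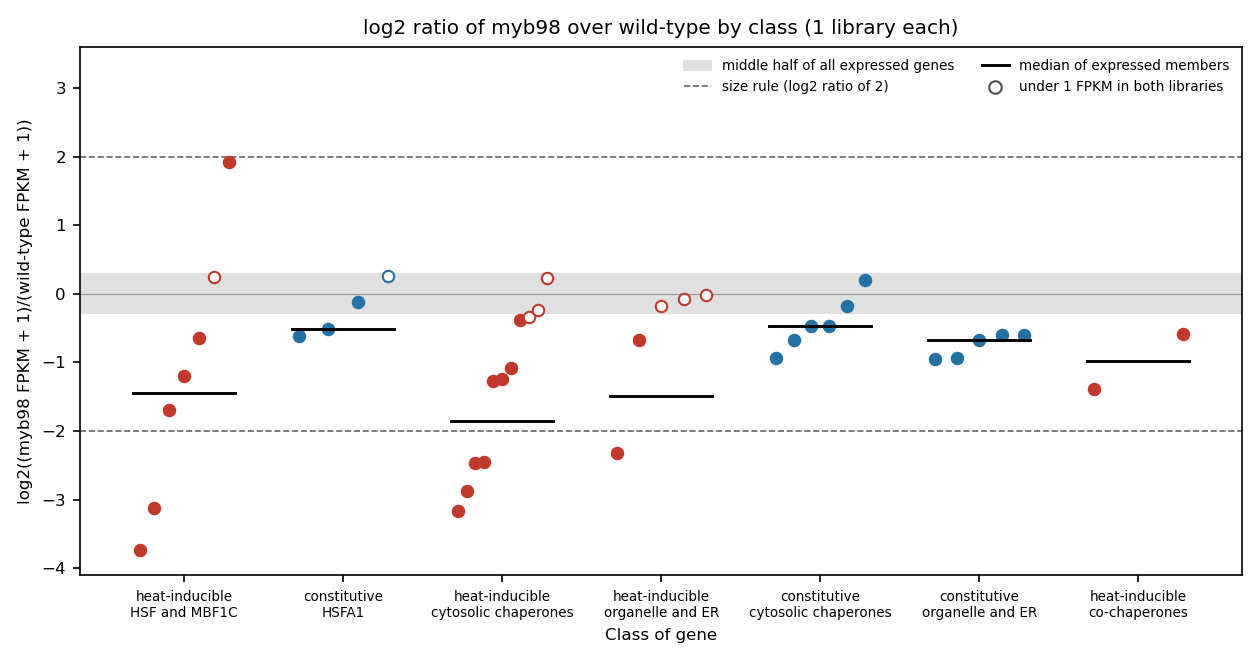
The log2 ratio of myb98 over wild-type (vertical axis, pseudocount of 1 FPKM) for 40 members by class, 1 point per gene, with BIP3 left out. Black lines are medians of expressed members, open points are genes under 1 FPKM in both libraries, the grey band runs from the lower to the upper quartile of all expressed genes and dashed lines mark the size rule. The 7 points below -2 are all heat-inducible genes, and the point near 2 is HSFB1.

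At the smaller size of 1 on the log2 scale, 13 heat-inducible members were lower and 1 was higher, and no constitutive member passed. The shares of all expressed genes at this smaller size were 2.74% lower and 2.95% higher. A gene needs at least 3 FPKM in the wild-type library to be able to fall. That level was reached by 10 heat-inducible members, of which 7 fell, by 14 constitutive members, of which 0 fell, and by 12448 genes in all, of which 0.932% fell. Counted without any filter, 36 of the 41 genes had a lower value in the myb98 library and 5 a higher one, namely HSFA3, HSFA1E, HSFB1, HSP18.2 and HSP90.4. The matching share over all unfiltered genes was not computed, and some of these values, such as those of HSP21, rest on few fragments. Among expressed genes, 30 of the 32 members were below a log2 ratio of 0, against 50.4% of all genes. For 8 of the 32, which reached 1 FPKM in the wild-type library alone, this direction was set by the filter. All members together summed to 840 FPKM in myb98 ovules and 1420 FPKM in wild-type ovules, or 0.31% and 0.508% of each library's summed FPKM.

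**Figure D2:**
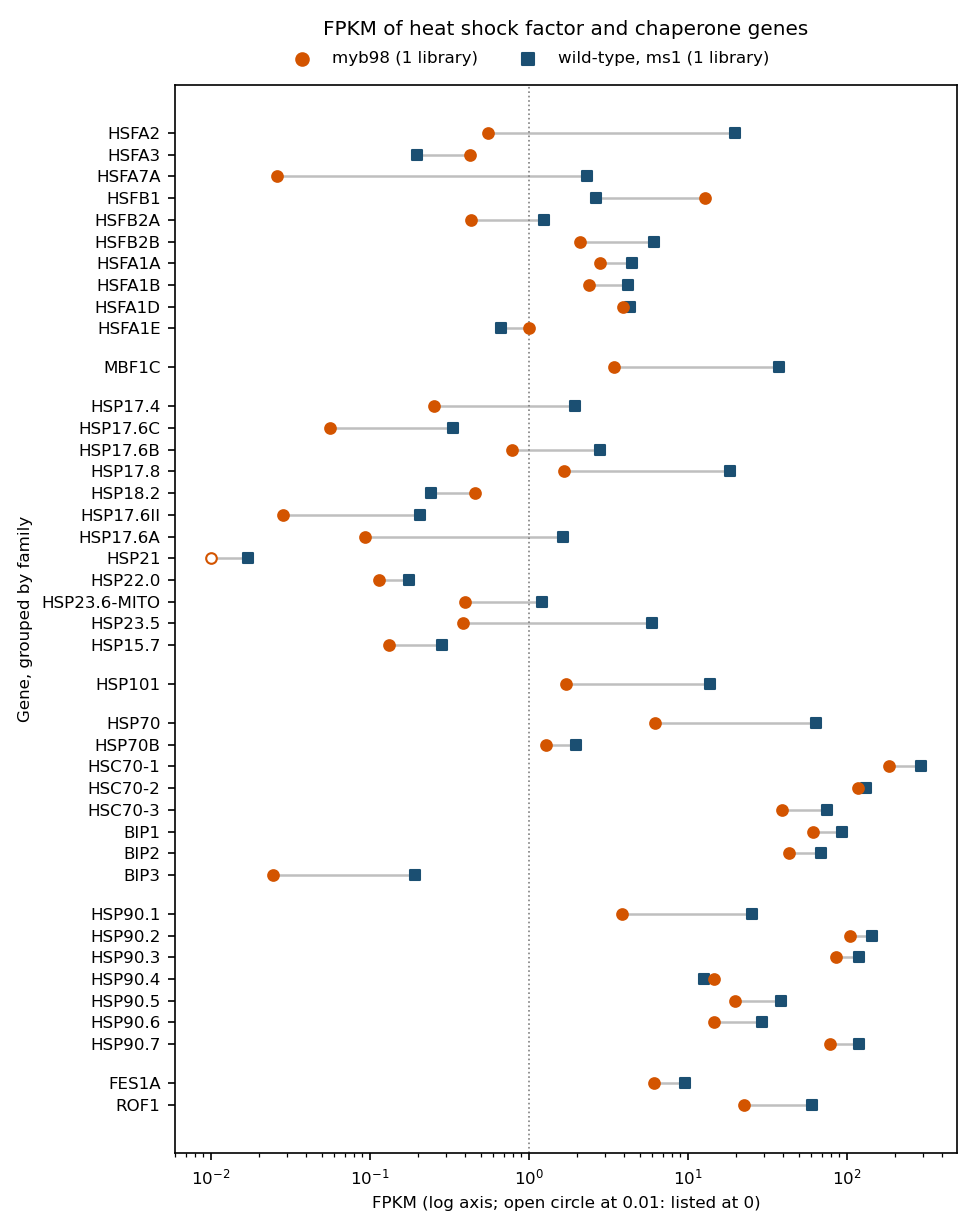
FPKM of each of the 41 genes on a log axis, grouped by family. Circles are the myb98 library and squares the wild-type library, 1 library each, and the open circle marks HSP21, listed at 0. The longest lines belong to heat-inducible genes such as HSFA2 and HSFA7A, while the HSC70 genes, BIP1, BIP2 and the constitutive HSP90 genes sit at the right with short lines.

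Among the regulators, HSFA2 (AT2G26150), which sustains the response after heat, had the lowest log2 ratio of all members. It had 0.553 FPKM in myb98 ovules and 19.8 FPKM in wild-type ovules, 35.8-fold lower (log2 ratio -3.74). Only 43 expressed genes had a lower log2 ratio. With a pseudocount of 5 FPKM, HSP70 (-2.61) and MBF1C (-2.33) had lower ratios than HSFA2 (-2.16). HSFA2 lies on chromosome 2 from 11135624 to 11137792, plus strand, with 3 exons (TAIR10.1). MBF1C (AT3G24500), a transcriptional coactivator needed for thermotolerance, fell to 3.43 FPKM in myb98 ovules, against 37.5 FPKM in wild-type ovules (10.9-fold lower, log2 ratio -3.12). It is a gene of 1 exon on chromosome 3 from 8918267 to 8919683, plus strand, and its exons overlap those of antisense neighbours.

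HSFA7A (AT3G51910), another HSF made after heat, had 0.026 FPKM in myb98 ovules and 2.31 FPKM in wild-type ovules (log2 ratio -1.69). By the depth estimate these are about 1.32 and 132 fragments, so no fold is given, and at its wild-type level the gene could not fall by the rule. With a pseudocount of 0.1 FPKM its log2 ratio was -4.25.

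The class B factors, which lack the activation domain of class A, differed in direction, and none passed the rule. HSFB1 (AT4G36990) had 12.9 FPKM in myb98 ovules and 2.65 FPKM in wild-type ovules, a 4.87-fold higher level in the mutant. Its log2 ratio of 1.93 was just short of the size rule, and only 51 expressed genes had a higher one. At a pseudocount of 0.1 FPKM it passed, with 2.24. HSFB1 and HSFB2B are known in Arabidopsis as repressors of heat-inducible HSF genes. HSFB2B (AT4G11660) was at 2.11 FPKM in myb98 and 6.15 FPKM in wild-type ovules (log2 ratio -1.20), and HSFB2A (AT5G62020) at 0.434 and 1.25 FPKM in the same order. Exons of HSFB2B overlap antisense genes.

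The constitutive HSFA1 factors, which start the response, did not pass the rule. HSFA1A (AT4G17750) had 2.81 FPKM in myb98 and 4.43 FPKM in wild-type ovules. HSFA1B (AT5G16820) had 2.41 and 4.22 FPKM and HSFA1D (AT1G32330) 3.91 and 4.33 FPKM in the same order. Their log2 ratios ran from -0.62 to -0.12. HSFA1E (AT3G02990, 0.998 and 0.665 FPKM) and HSFA3 (AT5G03720, 0.427 and 0.197 FPKM), an HSF that acts downstream of DREB2A, were below 1 FPKM in both libraries and higher in myb98.

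The order of the levels of the 10 HSFs described so far differed between the 2 libraries. HSFB4 (AT1G46264), a class B factor outside the 41 genes, was higher than any of them, at 25 FPKM in myb98 and 27.1 FPKM in wild-type ovules, and is not counted in these ranks and shares. In myb98 ovules HSFB1 ranked first of the 10 and made up 48.5% of the summed FPKM of the 10 HSFs, followed by HSFA1D with 14.7%, while HSFA2 ranked 7 with 2.08%. In wild-type ovules HSFA2 ranked first of the 10 with 43.0%, followed by HSFB2B with 13.4%, while HSFB1 ranked 6 with 5.76%. The 3 expressed HSFA1 genes held neighbouring ranks in both libraries, 2 to 4 in myb98 and 3 to 5 in wild-type.

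**Figure D3:**
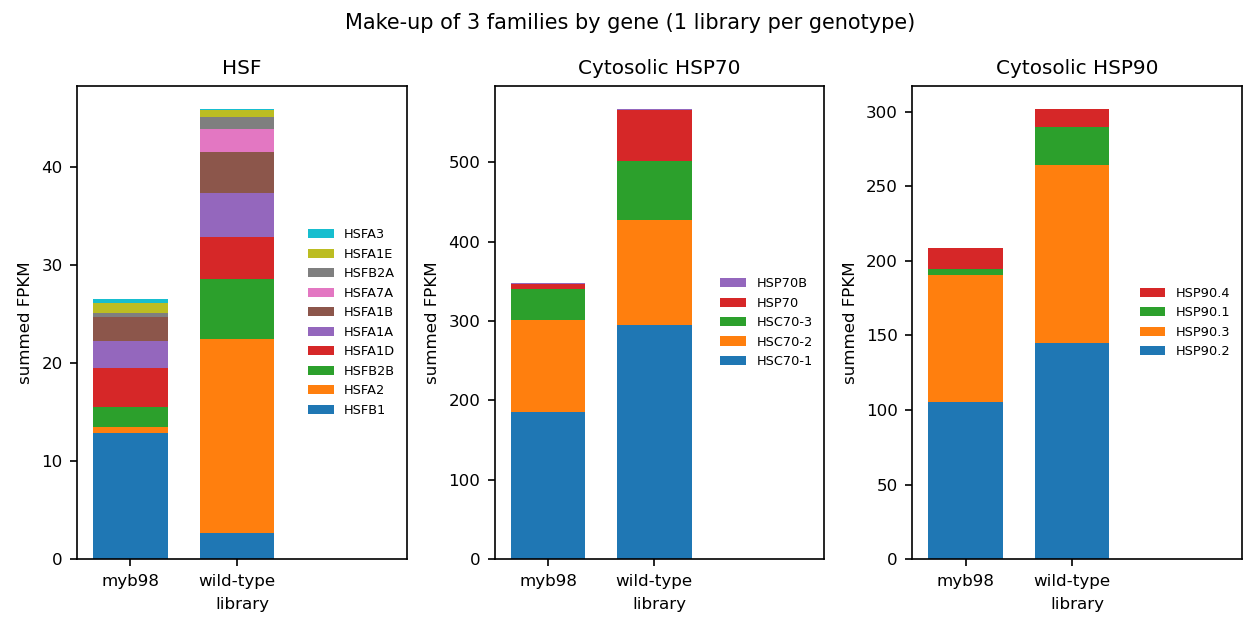
Summed FPKM of the 10 HSFs among the 41 genes, the 5 cytosolic HSP70 genes and the 4 cytosolic HSP90 genes, stacked by gene, with the myb98 library at the left of each panel and the wild-type library at the right. HSFA2 takes 43.0% of the HSF bar in wild-type and 2.08% in myb98, and HSFB1 48.5% in myb98.

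Promoters of the members were read from the genome because 7 of the heat-inducible members fell. The sequences here show HSFs and a small HSP with heat shock elements beside a constitutive HSP70 gene without any. Of the genes shown, HSFA2 alone fell by the rule, and genes that fell without an element are not shown. Each stretch is the 200 bases before the annotated start of the gene (TAIR10.1), on the strand of the gene. They lie at chr2:11135424-11135623 (HSFA2, plus strand), chr3:19264941-19265140 (HSFA7A, plus strand), chr3:16984868-16985067 (HSP17.4, minus strand) and chr5:556624-556823 (HSC70-1, minus strand). Capitals mark matches to the element, units of GAA and TTC in turn with 2 bases between them.
HSFA2: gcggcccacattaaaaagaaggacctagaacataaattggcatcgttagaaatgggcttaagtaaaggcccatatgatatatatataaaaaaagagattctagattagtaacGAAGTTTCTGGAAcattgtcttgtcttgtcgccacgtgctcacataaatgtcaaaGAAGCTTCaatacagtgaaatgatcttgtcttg
HSFA7A: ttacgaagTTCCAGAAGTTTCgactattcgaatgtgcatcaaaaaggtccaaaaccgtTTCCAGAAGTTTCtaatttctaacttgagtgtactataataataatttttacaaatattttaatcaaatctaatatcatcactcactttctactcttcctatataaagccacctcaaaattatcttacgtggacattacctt
HSP17.4: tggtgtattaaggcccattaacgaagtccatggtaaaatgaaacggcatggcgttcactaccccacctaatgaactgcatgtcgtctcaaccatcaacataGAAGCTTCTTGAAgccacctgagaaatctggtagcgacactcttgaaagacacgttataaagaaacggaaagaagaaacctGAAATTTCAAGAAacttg
HSC70-1: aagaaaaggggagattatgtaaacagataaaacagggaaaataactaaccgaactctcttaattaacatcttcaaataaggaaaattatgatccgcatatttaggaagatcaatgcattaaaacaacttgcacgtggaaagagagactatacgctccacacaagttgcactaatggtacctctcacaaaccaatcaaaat

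Exact pairs of units (GAANNTTC or TTCNNGAA, each its own reverse complement) were searched from 250 bases before to 50 after the start. They were found in 14 of the 25 heat-inducible genes and 2 of the 15 constitutive genes, against 19.3% of 27443 protein-coding promoters of the same length. The longer element of 3 units (GAANNTTCNNGAA on either strand), which contains both pairs, was found in 5 heat-inducible genes (HSFA2, HSFA7A, HSP17.4, HSP17.6C and HSP70), in the constitutive HSC70-3 and in 0.481% of all promoters. HSFA7A and HSP17.4 each held 2 copies. In HSP70 and HSC70-3 the match lay after the annotated start, at base 21 and base 34.

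Genes with and without a pair were both among those that fell. Of the 7 genes that fell, HSFA2, HSP70, HSP101 and HSP23.5 held a pair, and MBF1C, HSP17.8 and HSP90.1 held none in this window. The only pairs of HSP70 (bases 21 and 26) and HSP101 (base 30) lay after the annotated start. The same held for HSP23.6-MITO (base 14) and ROF1 (base 27), which did not fall. The expressed heat-inducible members had a median log2 ratio of -1.39 with a pair (11 genes) and -1.20 without one (7 genes). HSFB1, the gene that was higher, held a pair across its start. The annotated HSP90.1 and HSFA1A transcripts begin with ATG, so their windows may hold transcribed sequence in place of promoter. The bases before the HSP90.1 start end in atggcggatgttcag, which opens with a further ATG in frame. Elements further upstream of HSP90.1 would be missed, so its place among the genes without a pair is uncertain. GTAACNT, an element that MYB98 binds in vitro, was found on either strand in 5 of the 41 windows (12.2%, against 12.9% of all promoters). These were 5 of the 25 heat-inducible genes (20%) and 0 of the 15 constitutive genes, and none of the 7 genes that fell. Those 5 were HSFA3, HSP17.6C, HSP17.6B, HSP22.0 and FES1A. Beside a share of 12.9%, counts in sets this small do not set any of them apart. Binding of MYB98 to these genes was not tested.

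**Figure D4:**
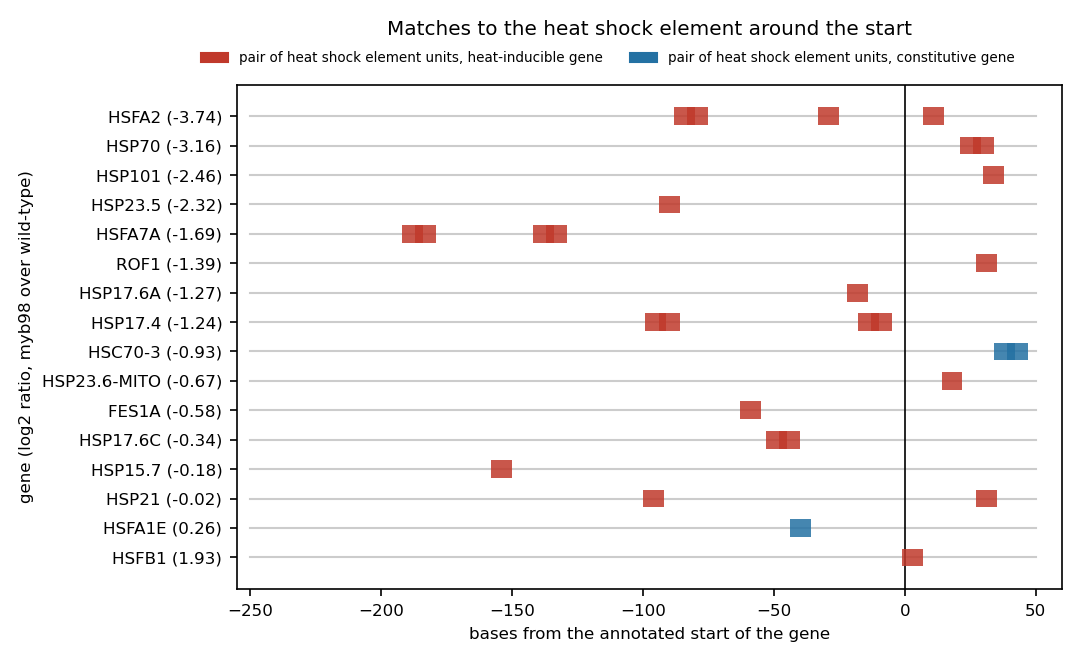
Positions of exact pairs of heat shock element units from 250 bases before to 50 after the annotated start (horizontal axis, in bases) in the 16 members that hold one, ordered by log2 ratio from the lowest at the top. Red boxes are heat-inducible genes and blue boxes constitutive genes. Matches occur from HSFA2 at -3.74 to HSFB1 at 1.93.

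Of the small HSPs, HSP17.8 and HSP23.5 fell in myb98 ovules, and the others were under 3 FPKM in both libraries. Of the 12 genes, 6 were expressed, 2 fell and 0 rose. Of the 6, 5 reached 1 FPKM in the wild-type library alone, so their direction was set by that filter. Their sum was 4.37 FPKM in myb98 ovules and 33.3 FPKM in wild-type ovules, or 13.1% of the wild-type sum. HSP17.8 (AT1G07400), a cytosolic class I protein, fell to 1.66 FPKM in myb98, against 18.5 FPKM in wild-type ovules (11.1-fold lower, log2 ratio -2.87). The mitochondrial HSP23.5 (AT5G51440) fell to 0.387 FPKM in myb98, against 5.92 FPKM in wild-type ovules (15.3-fold lower, log2 ratio -2.32). With a pseudocount of 5 FPKM neither passed the rule, at -1.82 and -1.02.

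Another 4 small HSPs were expressed and did not pass the rule. HSP17.6B (AT2G29500, class I) had 0.786 FPKM in myb98 and 2.79 FPKM in wild-type ovules, and HSP17.4 (AT3G46230, class I) 0.254 and 1.96 FPKM in the same order. The class II gene HSP17.6A (AT5G12030) had 0.0933 FPKM in myb98, about 3.59 fragments, and 1.64 FPKM in wild-type ovules. The second mitochondrial gene, HSP23.6-MITO (AT4G25200), had 0.396 and 1.22 FPKM in the same order. Of the 50-base windows of HSP17.4, 59.9% lie in an annotated antisense locus, so without strand the reads of the pair cannot be told apart.

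The remaining 6 small HSPs stayed under 1 FPKM in both libraries. The class I gene HSP17.6C (AT1G53540) had 0.0562 FPKM in myb98 and 0.336 FPKM in wild-type ovules, and HSP18.2 (AT5G59720) 0.459 and 0.244 FPKM, the one small HSP that was higher in myb98. HSP17.6II (AT5G12020), which lies next to HSP17.6A on chromosome 5, had 0.0286 and 0.206 FPKM. The peroxisomal HSP15.7 (AT5G37670) had 0.132 and 0.283 FPKM and the ER protein gene HSP22.0 (AT4G10250) 0.114 and 0.177 FPKM. The plastid HSP21 (AT4G27670) was listed at 0 in myb98 and had 0.0172 FPKM in wild-type ovules, less than 1 fragment by the estimate.

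In the HSP70 family the inducible gene fell and the abundant cognates did not. HSP70 (AT3G12580) had 6.21 FPKM in myb98 ovules and 63.6 FPKM in wild-type ovules (10.2-fold lower, log2 ratio -3.16). It lies on chromosome 3 from 3991117 to 3993886, minus strand, with 2 exons. HSP70B (AT1G16030), the other heat-inducible cytosolic gene, was low in both, at 1.29 and 1.98 FPKM in the same order (log2 ratio -0.38).

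The cytosolic cognates do the general folding work. HSC70-1 (AT5G02500), the most abundant member, had 185 FPKM in myb98 and 295 FPKM in wild-type ovules (1.59-fold lower, log2 ratio -0.67). Its neighbour HSC70-2 (AT5G02490) had 117 and 132 FPKM and HSC70-3 (AT3G09440) 39.1 and 75.4 FPKM in the same order, log2 ratios of -0.17 and -0.93. Heat-inducible genes made up 2.15% of the FPKM of the 5 cytosolic HSP70 genes in myb98 ovules and 11.5% in wild-type ovules.

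The ER HSP70 genes were lower by about as much as the cytosolic cognates. BIP1 (AT5G28540) had 61.6 FPKM in myb98 and 93.9 FPKM in wild-type ovules, and BIP2 (AT5G42020) 43.2 and 69.3 FPKM in the same order (log2 ratios of -0.60 and -0.67). Of the 50-base windows of the BIP1 transcript, 22.9% also occur in BIP2, so reads can be split between them. BIP3 (AT1G09080), the marker of ER stress, had 0.0245 FPKM in myb98, about 2.27 fragments, and 0.193 FPKM in wild-type ovules. The ER stress response element ATTGGNCCACG was found in the BIP2 window and in 0.0692% of all promoters.

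The HSP90 genes showed the same contrast between inducible and constitutive members. HSP90.1 (AT5G52640), the heat-inducible cytosolic gene, fell to 3.85 FPKM in myb98 ovules, against 25.5 FPKM in wild-type ovules (6.61-fold lower, log2 ratio -2.45, or -1.78 with a pseudocount of 5 FPKM). HSP90.2 (AT5G56030) had 105 FPKM in myb98 and 145 FPKM in wild-type ovules, HSP90.3 (AT5G56010) 85.4 and 119 FPKM and HSP90.4 (AT5G56000) 14.6 and 12.6 FPKM in the same order. HSP90.4 was the one expressed constitutive member with a ratio above 0 (log2 ratio 0.20). These 3 genes lie within chromosome 5 from 22677338 to 22689671. Of the 50-base windows of their transcripts 18.7% to 23.9% occur in another gene, so their single values are less certain than their sum, which was 205 FPKM in myb98 and 277 FPKM in wild-type ovules. HSP90.1 made up 1.85% of cytosolic HSP90 FPKM in myb98 and 8.43% in wild-type ovules.

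The HSP90 genes of other compartments were lower as well, the plastid and mitochondrial ones more than the ER one. The plastid HSP90.5 (AT2G04030), which chloroplast development needs, had 19.8 FPKM in myb98 and 38.8 FPKM in wild-type ovules (1.96-fold lower). The mitochondrial HSP90.6 (AT3G07770) had 14.7 and 29.3 FPKM (1.99-fold lower) and the ER protein gene HSP90.7 (AT4G24190), also called SHEPHERD, 77.9 and 119 FPKM (1.52-fold lower) in the same order.

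HSP101 (AT1G74310), the disaggregating chaperone, fell to 1.71 FPKM in myb98 ovules, against 13.9 FPKM in wild-type ovules (8.11-fold lower, log2 ratio -2.46, or -1.49 with a pseudocount of 5 FPKM). It lies on chromosome 1 from 27936508 to 27940369, minus strand, with 6 exons. The co-chaperones were lower without passing the rule. ROF1 (AT3G25230), a peptidyl-prolyl isomerase that binds HSP90, had 22.6 and 60.7 FPKM in myb98 and wild-type ovules (2.69-fold lower, log2 ratio -1.39). FES1A (AT3G09350), which protects cytosolic HSP70 from degradation, had 6.11 FPKM in myb98 and 9.61 FPKM in wild-type ovules (log2 ratio -0.58).

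Cytosolic and organelle chaperones were then compared. Of 14 expressed cytosolic chaperones 4 fell, with a median log2 ratio of -1.01, and of 7 expressed organelle and ER chaperones 1 fell, with a median of -0.67. With a pseudocount of 5 FPKM these medians had the opposite order (-0.45 and -0.63). Heat-inducible genes were 8 of the 14 and 2 of the 7. Within the heat-inducible chaperones the sum in myb98 ovules was 12.6% of the wild-type sum for the cytosol (16.4 and 131 FPKM) and 13.5% for organelles and ER (1.03 and 7.62 FPKM). In wild-type, HSP70 alone gave 63.6 of the 131 FPKM and HSP23.5 alone 5.92 of the 7.62 FPKM. The other heat-inducible organelle and ER genes did not exceed 1.22 FPKM, so these 2 percentages rest on few genes. Within the constitutive chaperones it was 70.1% for the cytosol (546 and 779 FPKM) and 62.1% for organelles and ER (217 and 350 FPKM). The difference between compartments was not tested.

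**Figure D5:**
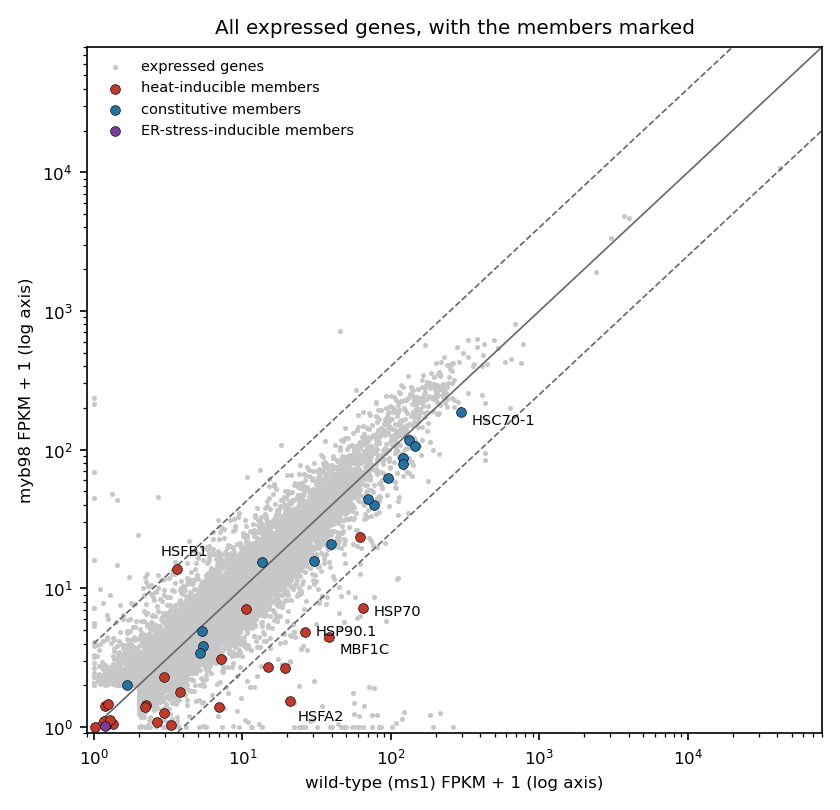
Each expressed gene by its FPKM + 1 in wild-type (horizontal) and myb98 (vertical) ovules on log axes, with the 41 members in colour, including those under 1 FPKM. The solid line marks equal values and the dashed lines the size rule of a log2 ratio of 2. The 7 members that fell lie below the lower dashed line and HSFB1 lies just under the upper one. The constitutive members lie between the dashed lines, most of them below the solid line, down to about 50.1% of wild-type for HSP90.6.

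Genes of the pathway outside the 41 were taken from further lists, which were chosen with earlier results of these data known. Of 14 further heat-induced genes, 9 were expressed, 4 fell and 0 rose (median log2 ratio -1.20), beside the 0.712% of all expressed genes that fell. ROF2 (AT5G48570), the heat-induced relative of ROF1, had 1.85 FPKM in myb98 and 19.3 FPKM in wild-type ovules (10.5-fold lower), HOP3 (AT4G12400), a heat-induced linker of HSP70 and HSP90, 2.09 and 16.5 FPKM (7.88-fold lower), and the small HSP gene AT1G54050 2.73 and 14.4 FPKM in the same order. The fourth was the small HSP gene AT1G59860 (0.93 and 6.74 FPKM, 7.24-fold lower), on the edge of the rule and named after its value was seen. The other 5 expressed genes did not pass, with log2 ratios between -1.20 (CLPB4) and -0.34 (CLPB3). AT1G59860 and DREB2A (0.667 FPKM in myb98 and 1.14 FPKM in wild-type) reached 1 FPKM in the wild-type library alone, so they had to be lower.

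The other chaperone partners did not pass the rule. Of all expressed genes 0.712% fell and 0.282% rose, so a count of 0 in lists this short does not set them apart. Of 10 further cytosolic co-chaperones, all expressed, 0 fell and 0 rose (median -0.25). HOP2 (AT1G62740) had 10.8 FPKM in myb98 and 19.9 FPKM in wild-type ovules, the DnaJ protein gene J3 (AT3G44110) 72.2 and 121 FPKM, and the HSP90 partner P23-2 (AT3G03773) 18.3 and 10.4 FPKM in the same order. Of 4 plastid and mitochondrial HSP70 genes 0 passed (median -0.63), with cpHSC70-2 (AT5G49910) at 14.4 and 37.1 FPKM, cpHSC70-1 (AT4G24280) at 23.2 and 36.8 FPKM and mtHSC70-2 (AT5G09590) at 20.1 and 31.4 FPKM. The fourth, mtHSC70-1 (AT4G37910), was higher in myb98, at 30.2 FPKM, against 24.2 FPKM in wild-type ovules (log2 ratio 0.30).

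Of 11 genes of ER folding and the unfolded protein response, 0 fell and 0 rose (median -0.26), beside 0.712% and 0.282% of all expressed genes. Calnexin CNX1 (AT5G61790) had 62.8 FPKM in myb98 and 92.6 FPKM in wild-type ovules, and SDF2 (AT2G25110) 27.8 and 38.1 FPKM in the same order. The DnaJ protein gene ERDJ3B (AT3G62600) was 1.47-fold lower in myb98. Of 11 further HSFs, 4 were expressed and 0 passed (median -0.22). HSFB4, given above, had a log2 ratio of -0.12. HSFA8 (AT1G67970) had 2.46 FPKM in myb98, 2.45-fold higher than in wild-type ovules. HSFA5 (AT4G13980) had 4.24 and 6.10 FPKM and HSFA4C (AT5G45710) 2.76 and 3.70 FPKM in myb98 and wild-type ovules.

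The hour of harvest is not given in the sources used here, and morning clock genes differed between the libraries. LHY (AT1G01060) had 0.977 FPKM in myb98 and 23.0 FPKM in wild-type ovules, CCA1 (AT2G46830) 0.314 and 8.19 FPKM, TOC1 (AT5G61380) 16.0 and 8.53 FPKM and GI (AT1G22770) 5.83 and 5.57 FPKM in the same order. Their part in the difference of the heat-inducible genes was not tested.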

How the data were processed

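RNA of mature ovules was sequenced with 1 library each of myb98 and wild-type (ms1). The authors deposited 1 table of FPKM with 1 column per library. The unit was read from the values. Per the submitters' processing notes, the tools include TopHat2 2.0.14 and Cuffdiff 2.2.1 and the build is TAIR10. The sources used here state neither annotation version, strandedness nor library scaling. Cuffdiff estimates abundance, so a value of 0 can be a failed estimate. Of 35548 identifiers, 1991 were blank. Names, lengths and sequences are of TAIR10.1 (RefSeq), which 32810 of the identifiers with values matched.

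Log2 ratios, counts, medians and motif matches were computed in Python 3.11.15 with pandas 2.3.3. Fragment numbers rest on the lowest values of genes with 1 transcript of at least 1500 nt, and are approximate. All 41 members were reported, with the 3 largest ratios of each further list. AT1G59860, HSFB4, mtHSC70-1, CLPB3 and CLPB4 were named after their values were seen. The members, classes and lists were chosen with earlier results of these data known. Heat induction and compartment come from general knowledge.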

Additional observations from a re-analysis of the deposited data

How the results depend on the processing

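With 1 library per genotype there is no replicate to leave out, and no paired analysis was possible because each genotype has a single library. The 7 members past the size rule, all falls, became 3 with a pseudocount of 5 FPKM (HSFA2, MBF1C and HSP70) and 11 with 0.1 FPKM, of which 10 fell and HSFB1 rose. The median of heat-inducible members (-1.33) was -2.62 and -0.59 at pseudocounts of 0.1 and 5, -1.56 against genes of like transcript length, -2.45 over members with at least 5 FPKM and -1.08 with no filter. That of cytosolic chaperones (-1.01) was -1.33 and -0.45 at pseudocounts of 0.1 and 5, -0.80 at 5 FPKM and -0.67 with no filter, and that of organelle and ER chaperones (-0.67) was -0.97 at a pseudocount of 0.1 and -0.80 at 5 FPKM. Cytosolic and organelle medians were thus equal at the 5 FPKM filter and in the opposite order at a pseudocount of 5 (-0.45 and -0.63). The heat-inducible share of HSP90 and cytosolic HSP70 FPKM was 1.69% in myb98 and 8.61% in wild-type. Without HSP90.2, HSP90.3, HSP90.4 and HSC70-2, which lie near relatives, the share was 3.26% and 14.1%. Of the 50-base windows of HSC70-2, 0% occur in another gene. Scaling the libraries to a median of 0 changed no call. By the depth estimate the lowest values rest on few fragments, such as about 3.59 for HSP17.6A (0.0933 FPKM) in myb98. HSFA2, at 0.553 FPKM in myb98, came to about 45.3 fragments. The cause of these shifts was not tested.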
